A study of Arabidopsis thaliana with 36 samples.

Results

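Roots of an Arabidopsis thaliana knockout of PPSR1 were compared with wild-type roots while phosphate (Pi) was supplied. The comparison took the 3 root libraries of the knockout and the 3 root libraries of the wild type at 200 µM Pi, 6 of the 36 libraries in the series, and covered all genes. The wild type (WT) was Columbia-0, and the knockout (KO) was the T-DNA line ppsr1. Plants of both groups grew in hydroponic culture for 4 weeks and then stayed at 200 µM Pi for 24 h before harvest. A line that overexpresses AtPPSR1 (OE) is described as a representative line. This line and roots kept at 0 µM Pi for the same 24 h served for side comparisons. Their root libraries also entered the fit from which the spread and p-values of KO against WT were taken. Leaves of KO and WT at 200 µM Pi served for side comparisons too. For the difference between organs all 36 libraries were fitted. The labels describe the 3 libraries of a group as independent biological replicates and carry a single batch value throughout, which left no batches to compare. Both mutant genotypes are represented by 1 line each, and effects of the transgene or the T-DNA on PPSR1 cannot be told apart here from other differences between the lines. Poly(A)-selected RNA was sequenced, and levels are in FPKM, fragments or reads per kilobase of coding sequence, scaled to the depth of the library.

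Roots take up Pi through PHT1 transporters in the plasma membrane, PHO1 loads it into the xylem, and the ubiquitin-conjugating enzyme PHO2 limits the abundance of both. SPX proteins sense the Pi status and hold back PHR1, the transcription factor of the Pi starvation response. The endodermis around the vascular cylinder seals the root with the Casparian strip and with suberin, a waxy polymer in the cell wall. The series title concerns growth under deficiency of nitrogen, phosphorus and potassium, and the comparison at 200 µM Pi asks what differed between KO and WT before Pi was withheld. The WT libraries at 200 µM stood apart from each other: WT replicate 1 resembled the KO libraries more than it did WT replicates 2 and 3, and WT replicate 2 carried a trend with coding length, so results that rest on them are given with and without them.

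By limma with Benjamini-Hochberg adjustment over 19166 genes and a threshold of 0.05, 6 genes differed (0.0313% of those tested), 2 of them higher in KO (0.0104%) and 4 lower (0.0209%). Of these, 5 were switched between a high level and a level at or near 0: DOT1, AT3G01345 and MRD1 were almost absent in KO root, and AT1G75945 and AT2G21185 were listed at 0 in WT root. The sixth, AT1G26300, had about the same spread in both groups and a much smaller fall. PPSR1 itself was not analysed here, since its name could not be tied to a locus, and the genotype labels were therefore not checked by it.

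The 140 bases before the annotated start of 4 of the 5 switched genes are shown because they are the stretches upstream of transcripts that were present in one genotype and at or near 0 in the other. They were read 5′ to 3′ on the gene's strand from RefSeq TAIR10.1. Capitals mark matches on either strand to the TATA-box letters TATANA, held by 51.4% of 27443 windows of the same length, and to GNATATNC, the letters of P1BS, the binding site of PHR1, held by 2.87%.
DOT1: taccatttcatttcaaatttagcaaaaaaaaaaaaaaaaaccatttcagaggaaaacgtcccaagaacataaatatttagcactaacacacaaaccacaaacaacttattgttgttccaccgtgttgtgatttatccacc
AT3G01345: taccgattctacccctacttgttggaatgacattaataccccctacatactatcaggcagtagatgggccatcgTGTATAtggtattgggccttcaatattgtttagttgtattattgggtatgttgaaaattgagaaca
MRD1: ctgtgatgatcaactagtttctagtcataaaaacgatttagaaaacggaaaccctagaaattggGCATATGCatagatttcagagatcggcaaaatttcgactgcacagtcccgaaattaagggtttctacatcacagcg
AT1G75945: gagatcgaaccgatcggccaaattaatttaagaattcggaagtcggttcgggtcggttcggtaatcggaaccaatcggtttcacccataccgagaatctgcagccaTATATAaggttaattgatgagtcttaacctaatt

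The windows lie at chr2:15165073-15165212 (plus strand) for DOT1, chr3:128998-129137 (plus strand) for AT3G01345, chr1:19964713-19964852 (minus strand) for MRD1 and chr1:28515917-28516056 (minus strand) for AT1G75945. The DOT1 window held neither motif. The window of AT1G75945 held TATATA, starting 34 bases before the annotated start, and that of AT3G01345 held a match on the opposite strand. The window of MRD1 held 1 match to P1BS and lies inside HEI10 (AT1G53490), a gene on the opposite strand. A match is a string of letters and no evidence of binding. The window of AT2G21185 overlaps an exon of another gene and is not shown.

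DOT1 (AT2G36120), a glycine-rich protein gene named for a mutant with altered leaf veins, stood at 1291, 781 and 777 FPKM in the 3 WT root libraries. In the 3 KO libraries it stood at 4.80, 5.68 and 5.33 FPKM, so every KO library lay far below every WT library. The mean fell from 949.8 ± 296 to 5.27 ± 0.443 FPKM (SD, n = 3 each), by 7.20 on the log2(FPKM + 1) scale (SE 0.30, adjusted p = 3.58e-11, limma). Summed over the libraries and scaled by depth, 21423 reads in WT against 70 in KO gave a 172-fold lower level (95% exact binomial interval 136 to 220.3, counting error only). DOT1 was thus low in KO but still counted in every KO library.

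AT3G01345, annotated as an expressed protein, was counted at 115, 83.5 and 67.4 FPKM in WT root and at 0, 0.11 and 0 FPKM in KO root. The single KO value above 0 corresponds to 1 read, against 3681 reads in the WT libraries, a ratio of 2065 with a counting interval from 370.4 to 81590. Its log2 change was -6.40 (SE 0.21, adjusted p = 9.58e-13). It shares 31-base words of coding sequence with AT2G06845, so how reads of the pair were divided is uncertain.

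MRD1 (AT1G53480), annotated as mto 1 responding down 1 after the methionine-accumulating mutant mto1, stood at 32.7, 64.4 and 28.6 FPKM in WT root and had no read in any KO library. Against a floor of 3 reads over the KO group, its level was at least 145-fold lower in KO. The log2 change was -5.33 (SE 0.26, adjusted p = 3.59e-10). MRD1 overlaps HEI10, a ubiquitin ligase gene of meiotic crossing-over, which averaged 6.09 ± 2.39 FPKM in WT and 2.27 ± 0.802 in KO (log2 change -1.09, limma's unadjusted p = 0.0149) and did not pass the test. Reads of the overlap can be told apart only by strand, and whether the counting used strand is not given in the sources.

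AT1G75945, a hypothetical protein gene with a coding sequence of 186 bases, had no read in the 3 WT libraries and stood at 33.7, 38.0 and 57.6 FPKM in KO root. The KO libraries held 136 reads of it, a level at least 80.8-fold higher than a floor of 3 reads over the WT group. The log2 change was 5.43 (SE 0.27, adjusted p = 3.72e-10).

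AT2G21185, annotated as a transmembrane protein, likewise had no read in WT root and stood at 15.03, 20.8 and 33.9 FPKM in KO root. Its 111 KO reads put it at least 66.0-fold above the same floor, with a log2 change of 4.52 (SE 0.34, adjusted p = 3.26e-07). It overlaps the gene AT2G21187, so its reads are uncertain in the same way as those of MRD1.

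No neighbouring gene passed the test. Of the 3 genes on each side of these 5, 23 of 30 passed the filter on low values and 0 passed by limma, with log2 changes from -1.09 to 0.60. At an unadjusted p under 0.05 there was 1 among them, HEI10. Beside DOT1, the Casparian strip gene CASP1 (AT2G36100), which overlaps AT2G36090, had a log2 change of -0.15 and AT2G36130 one of 0.13. Beside AT3G01345, AT3G01340 and AT3G01350 had 0.05 and -0.21, and beside AT1G75945 the ubiquitin ligase subunit gene SKP1 (AT1G75950) had -0.25.

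**Figure D1:**
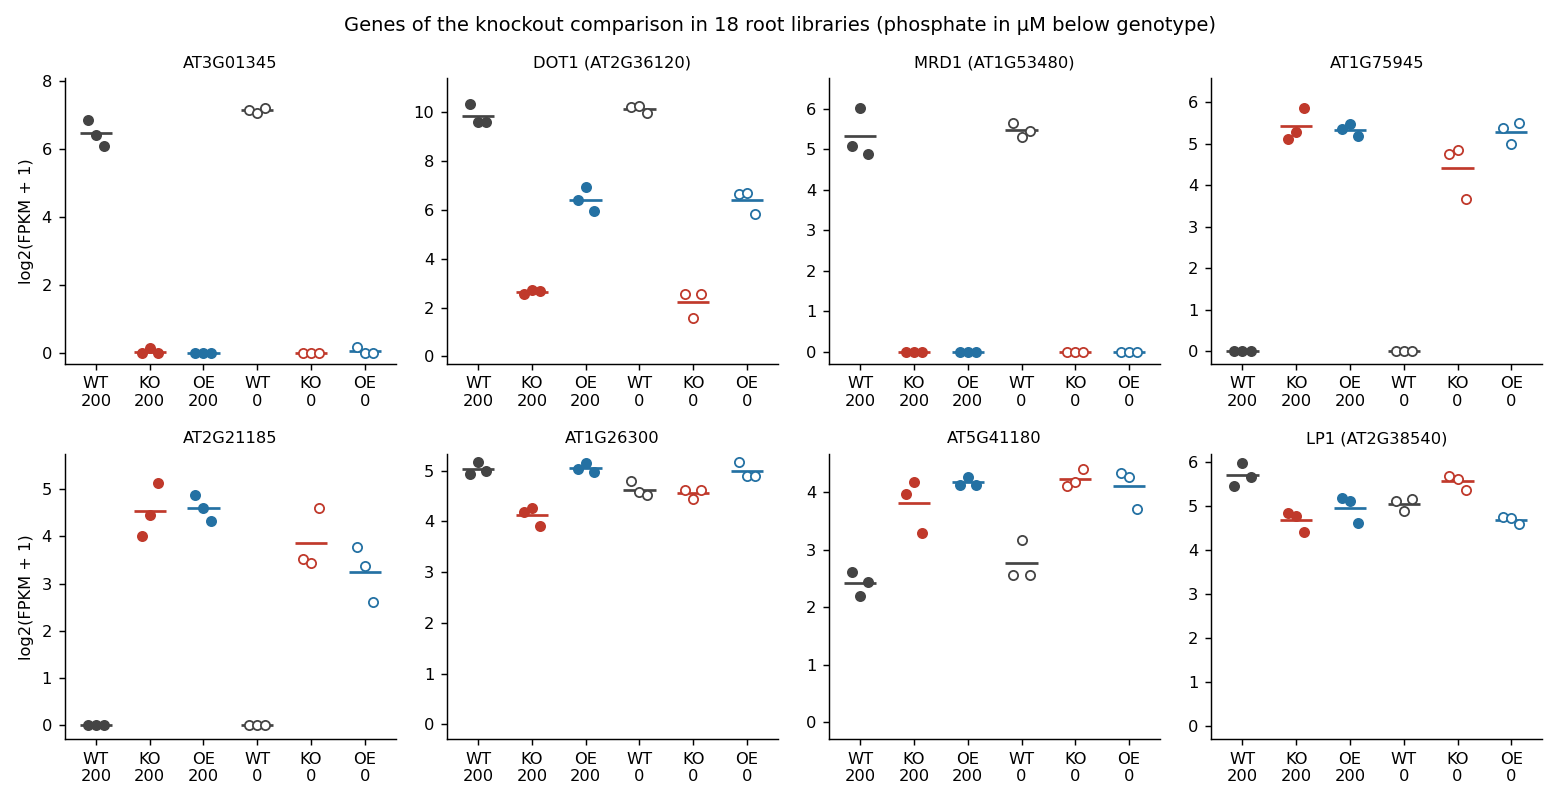
Level of 8 genes, in log2(FPKM + 1), in each of the 18 root libraries by genotype and Pi supply; points are libraries, bars are group means, and filled points are 200 µM. DOT1, AT3G01345 and MRD1 are highest in WT, with OE in between for DOT1, AT1G75945 and AT2G21185 are at 0 in WT, and the 3 KO libraries of AT1G26300 at 200 µM lie below the 3 WT libraries.

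The calls of these 5 genes held under each of the 17 other settings tried, with adjusted p up to 0.00120. They are genes that an earlier account of these data had named, so finding them again is no independent evidence. The same 5 also passed in the KO roots at 0 µM Pi. The group means there share no library with those at 200 µM, but both tests took their spread from the same fit. The log2 changes at 0 µM were -7.92 for DOT1, -7.13 for AT3G01345, -5.47 for MRD1, 4.43 for AT1G75945 and 3.85 for AT2G21185. In leaf at 200 µM, where 0.873% of 16489 genes passed (0.109% higher and 0.764% lower), they passed as well, with log2 changes of -6.34, -6.24, -5.10, 3.25 and 5.30 in the same order. In OE root at 200 µM, set against the same WT libraries, 8 genes passed (0.0417%), 4 higher and 4 lower (0.0209% each), these 5 among them. There, AT3G01345 and MRD1 were at 0 FPKM in all 3 libraries, AT1G75945 stood at 40.1, 43.8 and 35.6 and AT2G21185 at 28.3, 23.4 and 19.0 FPKM. For these 4 genes the OE values therefore lay on the KO side and not on the WT side.

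DOT1 was the 1 gene that passed between OE and KO. The OE libraries held 83.0, 121 and 60.7 FPKM, above every KO library and below every WT library, and OE exceeded KO by 3.78 on the log2 scale (SE 0.30, adjusted p = 3.88e-06). It made up 0.00522% of the 19166 genes tested, while 2028 had an unadjusted p under 0.05 (10.6%).

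AT1G26300, a gene for a BSD domain protein, is named here after its values were seen. It stood at 29.7, 34.9 and 30.9 FPKM in WT root and at 17.2, 18.4 and 14.1 in KO root, and the groups do not overlap. The log2 change was -0.90 (SE 0.15, adjusted p = 0.0446), and the call was lost under 11 of the 17 other settings, with adjusted p up to 1. At 0 µM its log2 change was -0.07, and the OE libraries at 200 µM held 32.0, 34.7 and 30.3 FPKM. It overlaps AT1G26290 on the opposite strand, which had a log2 change of -1.21 (unadjusted p = 0.0321), so its reads are uncertain.

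**Figure D2:**
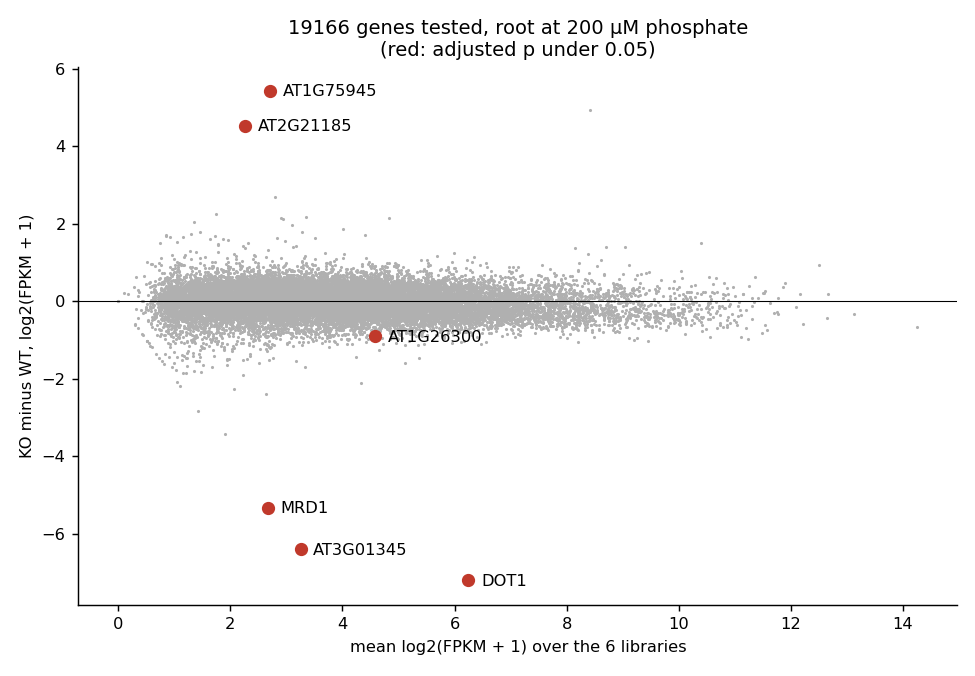
KO minus WT difference, in log2(FPKM + 1), of each of the 19166 genes tested against its mean level over the 6 root libraries at 200 µM. The 6 genes with adjusted p under 0.05 are red: 5 lie more than 4 log2 units from 0, and AT1G26300 lies at -0.90, within the cloud of genes that did not pass.

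How small a difference the comparison could show was set by the spread among libraries. The median SE over genes was 0.249 on the log2 scale, and the median half-width of the 95% interval, not adjusted for the number of genes, was 0.524. For 14071 genes (73.4%) that interval lay within 1 log2 unit of 0, that is within a 2-fold change either way on this scale. For the others a larger change was not excluded by their own interval. The spread behind these intervals was pooled over the 18 root libraries. The WT libraries compared here differed from each other more than the KO libraries did, so the intervals may be too narrow. A 2-fold change is therefore not taken as excluded for the 14071 genes. The same limit holds for the 95% intervals of single genes given below. Intervals from the 6 libraries fitted alone are not given. At an unadjusted p under 0.05 there were 2507 genes (13.1%), 1259 higher in KO (6.57%) and 1248 lower (6.51%). With the 6 libraries fitted alone there were 1228 among 18906 genes tested. Separately, 1190 genes (6.21%) had all 3 KO libraries above all 3 WT libraries and 1151 (6.01%) had them below.

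The WT libraries differed from each other more than the KO libraries did. Depth was 7823000, 11768000 and 11071000 reads in WT and 5426000, 6647000 and 5130000 in KO. Rank correlations of gene levels between pairs of KO libraries were 0.962 to 0.974, and those between pairs of WT libraries 0.922 to 0.95. WT replicate 1 was closer to the KO libraries (0.963 to 0.976) than to WT replicates 2 and 3 (0.941 and 0.95). AT2G01021, a hypothetical protein gene, is an example chosen after its values were seen: 1473 FPKM in WT replicate 1 and 1353 to 3134 in KO, but 56.6 and 1.77 in WT replicates 2 and 3.

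A trend with coding length was strongest in WT replicate 2. In WT replicate 2 the median level of the 332 genes with a coding sequence over 4000 bases lay 1.13 log2 units below the gene medians of the 18 root libraries, and that of the 802 genes under 300 bases lay 0.84 above. In WT replicate 3 the long genes lay at -0.46 and the short ones at -0.01, and in WT replicate 1 at -0.01 and 0.01. The KO libraries lay between -0.20 and 0.18. The KO minus WT difference followed the same line: its median was -0.32 over the shortest of 10 length classes and 0.30 over the longest. With a correction for coding length in each library the medians lay at -0.03 and -0.01. They were -0.08 and 0.11 without WT replicate 2, and -0.46 and 0.46 without WT replicate 1.

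**Figure D3:**
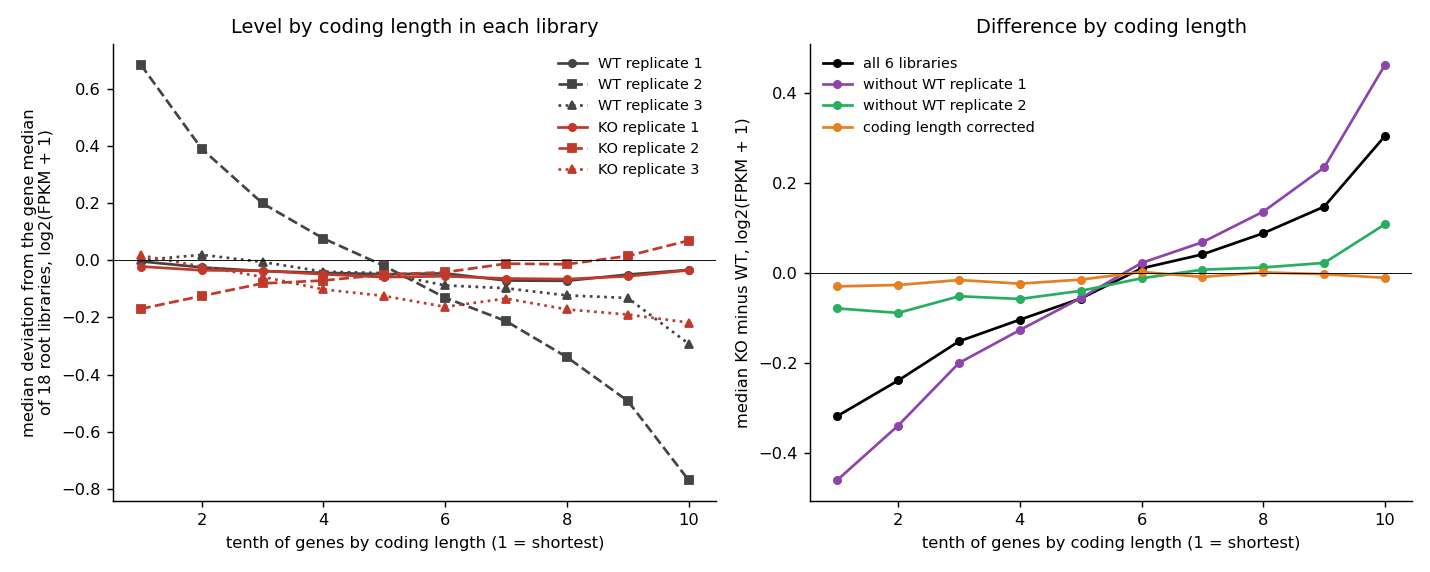
Left, median deviation of each of the 6 libraries from the gene medians of all 18 root libraries, in log2(FPKM + 1), by class of coding length; right, median KO minus WT difference by the same classes under 4 settings. WT replicate 2 runs from 0.68 at the shortest genes to -0.77 at the longest, and the difference runs from -0.32 to 0.30 with all 6 libraries.

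The number of genes that passed rested on WT replicate 1. Without it 922 genes passed (4.81%), 559 higher (2.91%) and 363 lower (1.89%), and without any other of the 6 libraries 5 or 6 passed. The genes called higher without WT replicate 1 had a median coding length of 2436 bases and those called lower one of 510 bases, against 1131 bases over all genes tested. The same length trend thus moved with these calls, and its part in them was not tested. Gene groups are therefore given below with all libraries, and without WT replicates 1 and 2 where that bears on the value.

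Past the 6 called genes, the next 14 by p are described by their values, since they did not pass. AT5G41180, a receptor-like kinase gene with leucine-rich repeats, came closest, at 5.13, 3.58 and 4.44 FPKM in WT root and 14.8, 17.0 and 8.79 in KO root (log2 change 1.397, SE 0.24, adjusted p = 0.0522). It passed at 0 µM, where the log2 change was 1.47 (adjusted p = 0.0225), and the OE libraries at 200 µM held 16.5, 18.17 and 16.5 FPKM. It shares 31-base words with AT1G63430. LP1 (AT2G38540), a lipid transfer protein gene, averaged 51.8 ± 9.96 FPKM in WT and 24.9 ± 4.1 in KO (-1.03, adjusted p = 0.0675), with a log2 change of 0.51 at 0 µM. AT5G02580, annotated as argininosuccinate lyase, averaged 70.3 ± 25.4 FPKM in WT and 24.2 ± 4.69 in KO (-1.45, adjusted p = 0.0675).

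GLL22 (AT1G54000), a lipase-like gene of the GDSL family, stood at 408, 383 and 407 FPKM in WT and 623, 595 and 756 in KO (0.71, adjusted p = 0.159). It shares words with its neighbour AT1G54010. AT5G26270, annotated as a transmembrane protein, averaged 10.8 ± 0.531 FPKM in WT and stood at 46.2, 21.6 and 51.0 in KO (1.70, adjusted p = 0.176), and overlaps AT5G04225. In each of these genes the KO and WT libraries do not overlap at 200 µM. Of the 14, 9 had the same sign at 0 µM, and 2 of these with an unadjusted p under 0.05 by limma there. Among all genes tested, 12.2% had such a p at 0 µM, so these counts are not read as evidence for the 14.

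The gene lists held 574 genes in 35 groups, of which 535 passed the filter on low values. With all libraries, 0 of them passed the test by limma in either direction. At an unadjusted p under 0.05, 52 list members (9.72%) were higher in KO and 33 (6.17%) lower, against 6.57% and 6.51% of all genes. Without WT replicate 1, 35 list members (6.54%) passed, 27 higher and 8 lower, where 4.81% of all genes did. The median of a list was within 0.2 of 0 in 26 of the 35 lists, where the median over all 19166 genes was -0.005.

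Suberin genes were higher in KO root in most members, none past the test. All 17 members passed the filter, with a median log2 difference of 0.43. The median was 0.46 without WT replicate 1, 0.33 without WT replicate 2, 0.32 with the length correction and 0.20 without WT replicates 2 and 3 together. In 8 of the 17 all 3 KO libraries lay above all 3 WT libraries and in 0 below, where the share over all genes was 6.21% above. CYP86A1 (AT5G58860), which hydroxylates the fatty acids of root suberin, stood at 124, 102 and 78.3 FPKM in WT and 177, 172.5 and 145 in KO (0.72, SE 0.16, adjusted p = 0.218). GPAT5 (AT3G11430), the acyltransferase that joins them to glycerol, stood at 19.6, 25.1 and 16.2 in WT and 32.1, 32.7 and 34.5 in KO (0.70, adjusted p = 0.27), and shares words with AT3G11325. The groups do not overlap in either gene.

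Among the suberin transporters, ABCG6 (AT5G13580) averaged 18.25 ± 6.14 FPKM in WT and 30.0 ± 4.75 in KO (0.72), while the transcription factor gene MYB41 (AT4G28110) had the opposite sign (-0.56, 95% interval -1.42 to 0.31). ABCG6 shares words with AT2G39350 and AT3G55110. Without WT replicate 1, CYP86A1, ABCG6 and ABCG20 passed the test, with adjusted p from 0.00538 to 0.0483. In that setting 4.81% of all genes passed. At 0 µM Pi the list had a median of -0.09. In bulk roots, fewer or more suberized cells and less or more RNA per cell cannot be told apart.

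Genes of the Casparian strip centred near 0. The median of 12 endodermis barrier genes was 0.03, or -0.14 without WT replicate 2. Of the 12, 0 lay above and 2 below all WT libraries (6.21% and 6.01% of all genes). The 2 were CASP5 (AT5G15290), a Casparian strip membrane protein gene, at 2.04, 2.86 and 2.88 FPKM in WT and 0.98, 0.27 and 0 in KO (-1.39, adjusted p = 0.27), and MYB36 (AT5G57620), the factor that switches on strip formation, at 19.4, 16.5 and 27.1 in WT and 16.4, 13.2 and 10.12 in KO (-0.62, adjusted p = 0.281). CASP5 overlaps AT5G15300.

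**Figure D4:**
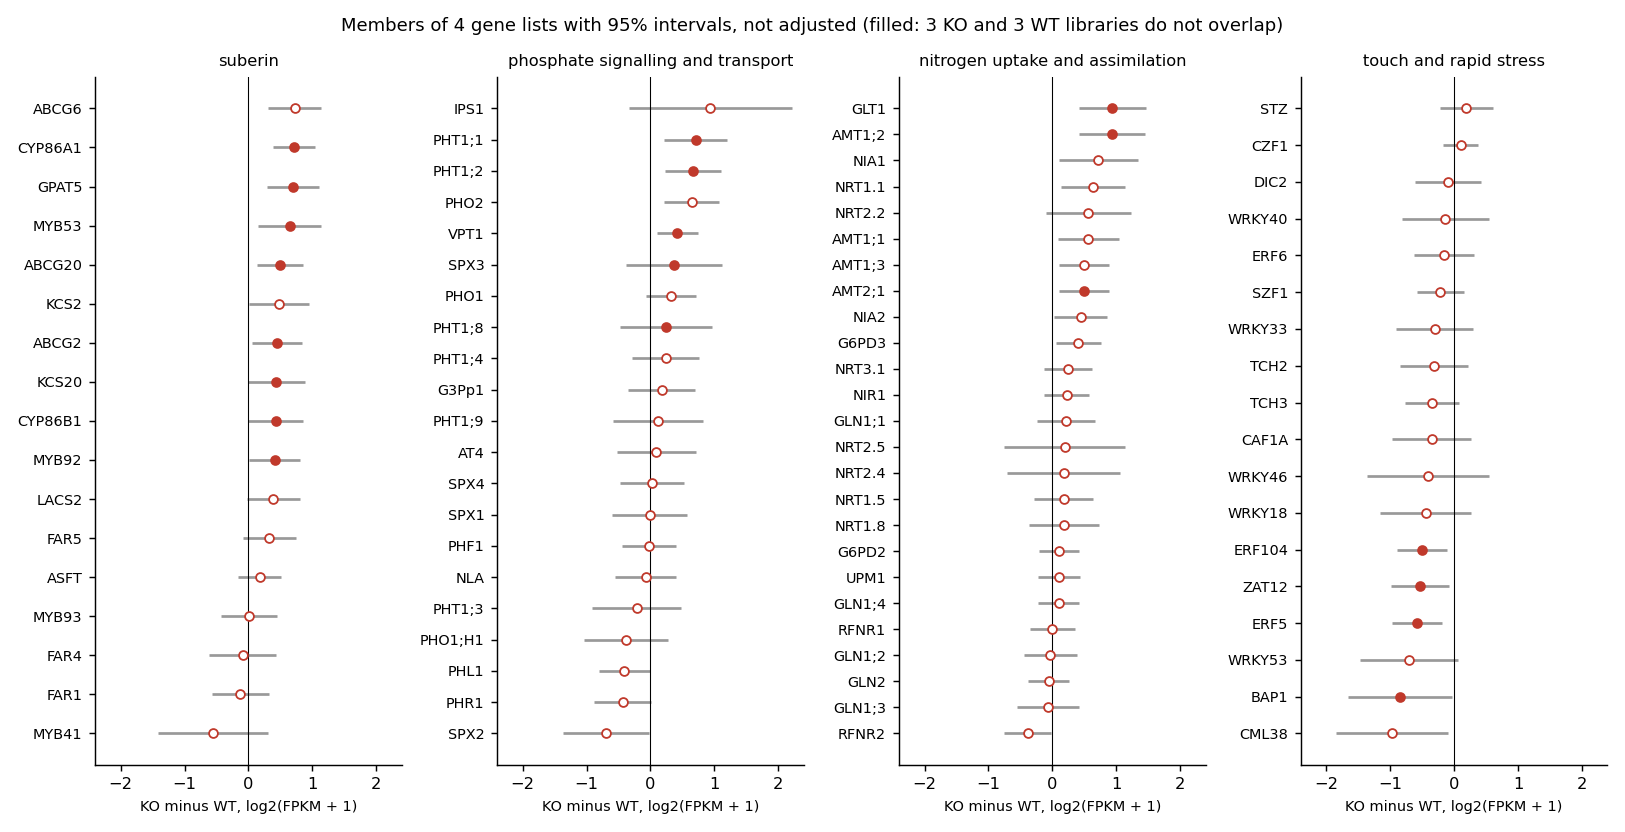
KO minus WT difference, in log2(FPKM + 1), of each tested member of 4 gene lists at 200 µM, with 95% intervals not adjusted for the number of genes; filled points are genes whose 3 KO and 3 WT libraries do not overlap. In the suberin list 14 of 17 members lie above 0 and in the touch list 2 of 18, and no member passed the test.

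Pi signalling and transport genes centred near 0. Of 21 tested, 5 lay above all WT libraries and 0 below (6.21% and 6.01% of all genes), and 0 passed the test by limma. The median was 0.12, between 0.04 and 0.24 over the other settings. The uptake transporter genes PHT1;1 (AT5G43350) and PHT1;2 (AT5G43370) stood at 694, 534 and 335 and at 200.4, 130.3 and 113 FPKM in WT. In KO they stood at 697, 827 and 941 and at 207, 229 and 249 FPKM (0.71 and 0.67, adjusted p = 0.279 and 0.271). In each case the lowest KO library lay just above the highest WT library. Members of the PHT1 family share 31-base words, so reads may have been split among them. PHO2 (AT2G33770) averaged 93.4 ± 39.4 in WT and 140.4 ± 23.4 in KO (0.65), with WT replicate 1 at 139 within the KO range. Without WT replicate 1 these 3 genes passed, where 4.81% of all genes did.

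Genes tied to the Pi status did not pass the test. SPX1 (AT5G20150), a sensor gene that rises sharply when Pi is short, stood at 15.2, 13.6 and 11.1 FPKM in WT and 20.8, 8.78 and 12.1 in KO, with a log2 difference of -0.01 (95% interval -0.60 to 0.57). PAP17 (AT3G17790), an acid phosphatase gene, had a difference of 0.02 (-0.47 to 0.52), and SQD2 (AT5G01220), of sulfolipid synthesis, one of 0.07 (-0.39 to 0.52). PHR1 (AT4G28610) stood at 34.6, 37.8 and 38.0 FPKM in WT and 37.9, 31.1 and 16.5 in KO (-0.44, -0.89 to 0.02). PHR1 overlaps AT4G28600 and PAP17 overlaps AT3G17800. The lists of membrane lipid remodelling, with 13 genes, and of acid phosphatases and RNases, with 7, had medians of 0.21 and -0.13. The first was 0.09 without WT replicate 2 and 0.06 with the length correction. The second was -0.02 without WT replicate 2 and 0.05 without KO replicate 3.

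Nitrogen uptake and assimilation genes had 21 of 25 members above 0 and a median of 0.21, with 9 higher and 1 lower at an unadjusted p under 0.05 (6.57% and 6.51% of all genes). The median ran from 0.13 to 0.36 over the other settings, and was 0.33 without WT replicate 3 and 0.36 without KO replicate 1. GLT1 (AT5G53460), the NADH-dependent glutamate synthase, stood at 224, 89.1 and 122 FPKM in WT and 235, 286 and 259 in KO (0.94, adjusted p = 0.27). AMT1;2 (AT1G64780), an ammonium transporter gene, stood at 47.7, 23.65 and 31.8 in WT and 52.4, 66.4 and 76.3 in KO (0.94, adjusted p = 0.27). In both genes WT replicate 1 lies next to the KO libraries and WT replicates 2 and 3 far below. The coding sequence of GLT1, which overlaps AT5G53470, has 6627 bases and is among the long ones that were low in WT replicate 2, and with the length correction the list's median was 0.13. Potassium uptake genes had a median of -0.06 over 9 members, or -0.13 without WT replicate 2 and -0.22 without KO replicate 2, with AKT1 (AT2G26650), a root potassium channel gene, at -0.04 (-0.37 to 0.29), which overlaps AT2G26640.

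Touch and rapid stress genes lay on the lower side in KO root. Of 18 tested, 2 were above 0, 4 lay below all WT libraries and 0 above (6.01% and 6.21% of all genes), with a median of -0.35, and none passed. ERF5 (AT5G47230), an ethylene response factor gene induced by wounding and touch, stood at 22.2, 37.8 and 31.7 FPKM in WT and 19.0, 18.16 and 22.0 in KO (-0.58, adjusted p = 0.275). CML38 (AT1G76650), a calmodulin-like gene, averaged 23.2 ± 6.55 in WT and 11.8 ± 5.56 in KO (-0.98, adjusted p = 0.339) and shares words with AT1G76640. Summed over the list, levels were 474, 503 and 658 FPKM in WT and 451, 416 and 422 in KO. The sums do not overlap, with WT replicate 1 nearest to KO, and the median was -0.21 without WT replicate 3 and -0.17 without WT replicates 2 and 3.

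Heat shock genes had a median of -0.40 over 12 tested members, with 5 below and 1 above all WT libraries (6.01% and 6.21% of all genes). MBF1C (AT3G24500), a coactivator of the heat response, stood at 38.6, 47.0 and 51.9 FPKM in WT and 28.4, 25.9 and 22.2 in KO (-0.82, adjusted p = 0.27), and overlaps 3 other genes. The list's median was -0.66 without WT replicate 2, -0.19 without WT replicate 3 and 0.26 at 0 µM.

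In the list of cold, drought and abscisic acid genes the median was -0.36 over 19 members, but their summed levels were 2693, 6024 and 5986 FPKM in WT and 4067, 2648 and 3247 in KO, so WT replicate 1 lay near the lowest KO library. The median was -0.78 without WT replicate 1 and -0.11 without WT replicate 3. Leaving out WT replicates 2 and 3 together turned it to 0.23. ERD10 (AT1G20450), a dehydrin gene, stood at 298, 345 and 941 FPKM in WT and 304, 282 and 210.4 in KO (-0.81, adjusted p = 0.296), with WT replicate 3 alone far above the rest. It shares words with the neighbouring dehydrin gene COR47 (AT1G20440).

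Photosynthesis genes, which mark shoot tissue, had 29 of 30 tested members above 0 and a median of 0.54, with 6 above all WT libraries (6.21% of all genes) and 0 past the test. Their summed level was 2014, 2098 and 3568 FPKM in WT root and 3738, 2923 and 3491 in KO root, where WT replicate 3 fell within the KO range. Over all root libraries the sum ran from 1311 to 6820 FPKM, and over the leaf libraries from 175200 to 308300, so the samples labelled root held these transcripts at a small share of the leaf level. The part of this difference in the other lists was not tested.

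Auxin genes held 4 of 16 members above all WT libraries and 0 below (6.21% and 6.01% of all genes), with a median of 0.08. The median was -0.04 without WT replicate 1, -0.05 without WT replicate 2 and 0.28 without WT replicate 3, so its sign rested on single libraries. PIN3 (AT1G70940), an auxin efflux carrier gene, stood at 21.5, 10.7 and 19.4 FPKM in WT and 26.8, 31.4 and 34.2 in KO (0.85, adjusted p = 0.27), and shares words with AT1G23080. AUX1 (AT2G38120), the influx carrier gene, averaged 86.9 ± 24.2 in WT and 124 ± 6.73 in KO (0.54, adjusted p = 0.27). Indole glucosinolate and camalexin genes held 4 of 11 above all WT libraries (6.21% of all genes), with a median of 0.02 that was -0.18 without WT replicate 2 and 0.28 without WT replicate 3. Among them was CYP83B1 (AT4G31500), which commits indole oxime to glucosinolates, at 352, 234 and 286 in WT and 402, 429.6 and 418 in KO (0.54, adjusted p = 0.27).

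The 26S proteasome genes, 23 in number, had a median of -0.02 and 21 autophagy genes one of -0.09. Meristem and cell cycle genes, 18 in number, had a median of -0.02, root hair genes (20) 0.05 and xylem and secondary wall genes (19) 0.08. Single WT libraries moved these values: root hair was -0.16 without WT replicate 2, xylem 0.33 without WT replicate 1 and -0.10 without WT replicate 2, meristem 0.13 and autophagy -0.31 without WT replicate 3. Hypoxia genes had a median of 0.23 over 14 members with all libraries, -0.44 without WT replicate 2 and 0.59 without WT replicate 1, so even the sign rested on single libraries. Iron deficiency genes were similarly uneven: IRT1 (AT4G19690), the root iron transporter, stood at 537, 113 and 178 FPKM in WT and 218, 453 and 279.7 in KO (0.45, 95% interval -0.42 to 1.31), and shares words with AT1G31260.

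**Figure D5:**
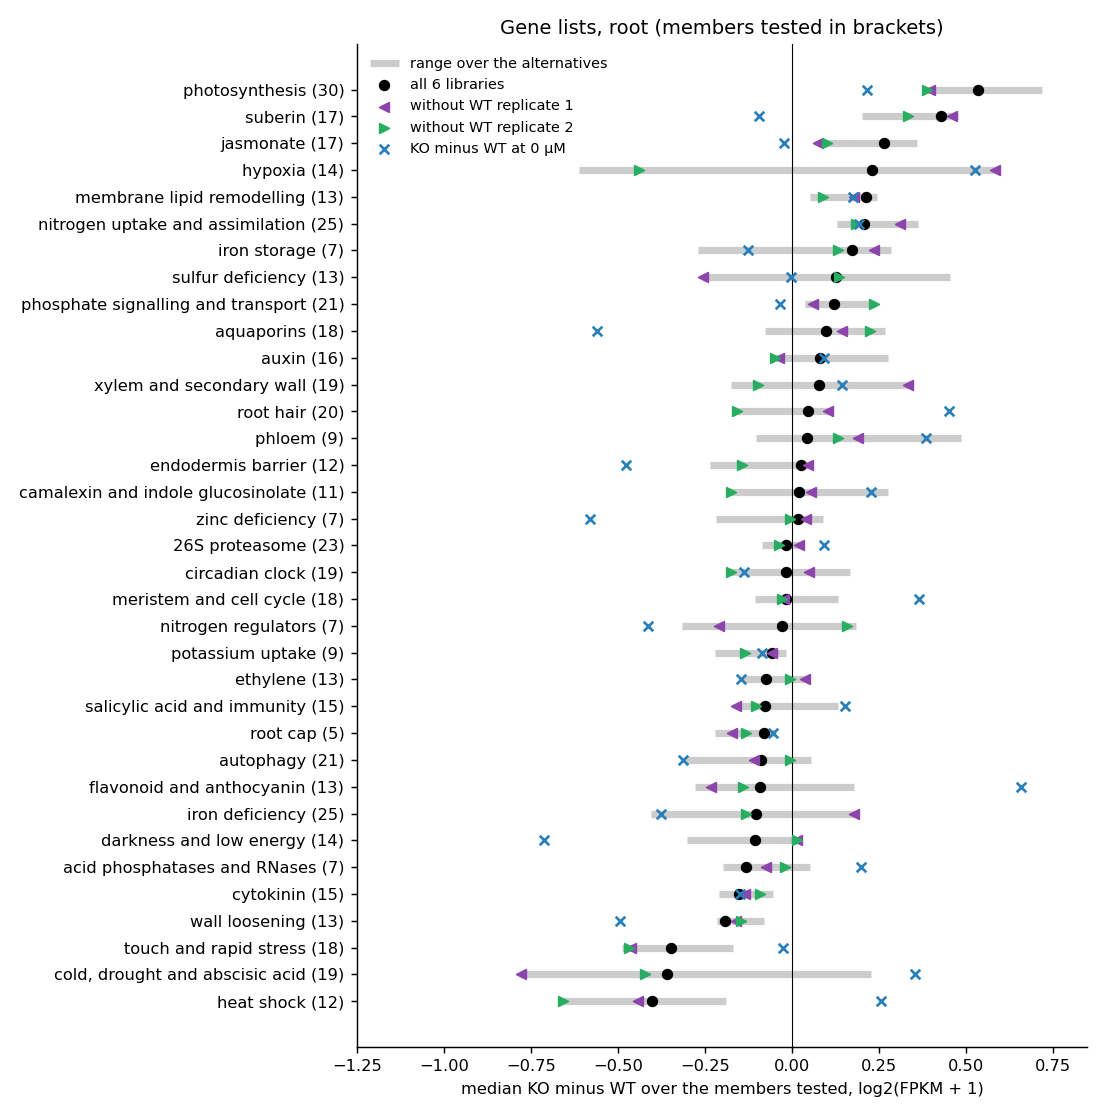
Median KO minus WT difference, in log2(FPKM + 1), of each of the 35 gene lists in root; circles use all 6 libraries at 200 µM, triangles leave out WT replicate 1 or 2, crosses are KO minus WT at 0 µM, and grey bars span the other settings tried. Photosynthesis (0.54) and suberin (0.43) lie highest, heat shock (-0.40) lowest, and most bars of lists near 0 cross 0.

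Whether the difference between KO and WT depended on the Pi supply was tested as an interaction. In that test 0 of 19166 genes passed (0%) by limma, with 2245 at an unadjusted p under 0.05 (11.7%). Without WT replicate 1 at 200 µM 153 passed. In KO root against WT root at 0 µM 10 genes passed (0.0522%), 3 higher (0.0157%) and 7 lower (0.0365%). They were the 5 switched genes, AT5G41180, and 4 lower genes: LAC2 (AT2G29130), a laccase gene, AT1G28070, AT3G17580 and AT4G15610. AT1G28070 shares words with AT2G33510 and overlaps AT1G28060, and AT3G17580 shares words with AT1G48330. At 200 µM LAC2 stood at 12.6, 2.81 and 4.62 FPKM in WT and 1.93, 1.49 and 0.79 in KO, without overlap (-1.49, adjusted p = 0.27), and at 0 µM its log2 change was -2.35.

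AT4G15610, annotated in the uncharacterized family UPF0497, differed in the values themselves: 541, 423 and 253 FPKM in WT and 477, 382 and 399 in KO at 200 µM (0.11), against a log2 change of -1.33 at 0 µM. The difference between the 2 supplies was -1.44 and did not pass (adjusted p = 0.296). Over all genes, 285 had an unadjusted p under 0.05 by limma at both supplies. They made up 11.4% of those at 200 µM and 12.2% of those at 0 µM. Among all genes tested, 12.2% had such a p at 0 µM and 13.1% at 200 µM, so the overlap was no larger than these shares. Of the 285, 170 (59.6%) had the same sign.

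Between organs, 240 of 19327 genes differed in the effect of KO at 200 µM (1.24%), 207 with a higher (1.07%) and 33 with a lower signed log2 change in root than in leaf (0.171%). With the libraries of the 4 groups compared fitted alone, 4 genes passed, all higher. The split was 108 higher and 55 lower with median-of-ratios scaling and 155 and 71 with the length correction. Of the 240, 235 were tested in leaf and 86 passed there on their own, against 144 of 16489 genes over all. In root 232 were tested, and 142 had an unadjusted p under 0.05 by limma, against 13.1% of all genes. The 240 were selected by the difference between organs, so these counts are no independent evidence of where it lies. The median size of the log2 change of the 240 genes was 1.02 in leaf and 0.51 in root. The aspartyl protease gene AT4G16563 stood at 22.7, 5.72 and 12.4 FPKM in WT root and 17.1, 20.06 and 13.8 in KO root (0.47). In leaf it stood at 66.6, 95.9 and 74.3 in WT and 1.57, 4.80 and 3.62 in KO (-4.27), so its difference between organs, 4.74 (SE 0.57, adjusted p = 6.85e-05), lay mostly in the leaf values. It passed in all 21 other settings. Without a single library the count of such genes ran from 76 to 562.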

How the data were processed

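The authors' deposited table gives 1 value per gene and library for 27444 genes. Neither the labels nor the file headers name the unit. The deposited values are FPKM by their behaviour: times coding length in kb they sum to between 974165 and 1016893 per library, and at least 99.9% of the low values tested came out as whole reads, to within 0.1 read, which gave the depth. Libraries were poly(A)-selected and strand-specific, per the labels' protocols. Per the submitters' processing notes, Trimmomatic, HISAT2 2.2.1 and DESeq2 were used, with the build TAIR10. No source used here gives the counting tool, its strand setting or the gene models.

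The 19166 genes whose mean over the 18 root libraries reached 1 FPKM entered 1 limma fit with trend (R 4.3.3, limma 3.58.1) on log2(FPKM + 1), which understates changes of low genes, with a mean for each of 6 groups. For the difference between organs all 36 libraries entered with a filter over both organs. Calls were made at 0.05 after Benjamini-Hochberg adjustment. Counting intervals are 95% exact binomial and, like floors of 3 reads, cover counting error only. Other settings changed the pseudocount, filter, scaling, length correction, weights, libraries or test, or took recovered reads with voom. The fit was tested on simulated data.

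The comparison and the gene lists were chosen with earlier results of these data known. Named genes were up to 14 rises and 14 falls that passed with no overlap, at least 5 FPKM and in each leave-out fit, up to 3 each way per list, 5 genes named earlier, and 3 each way for the side comparisons. Since no list member passed, the list members named, the 14 next genes by p and other genes outside this rule were picked after their values were seen. All genes matched the RefSeq TAIR10.1 name table by locus, and 527 of 574 list genes by name. The motif TATANA was taken after TATAAA had matched no printed window. Replicate numbers did not pair the samples. The chi-square of counts per gene was at least 6.87 within the WT and KO root groups at 200 µM, so no library was a repeat of another of its group. Pairs across groups were not checked in this way.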

Additional observations from a re-analysis of the deposited data

Results flagged for a closer look

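For 6 genes the effect of KO at 200 µM differed between root and leaf by limma's test of the difference itself, and they stand at the ends of that list. With the groups compared fitted alone, the calls of AT3G29631, AT2G46670, HB-12, AT2G01021 and LRX3 were lost, with adjusted p from 0.298 to 0.409, and that of AT4G16563 held (adjusted p = 0.0173). Over all other settings AT3G29631 lost its call in 2 of 20, AT2G46670 in 8 of 21, HB-12 in 8, LRX3 in 9 and AT2G01021 in 11, and none changed sign. AT3G29631, annotated as a nuclease and overlapping AT3G05845, stood at 0.55, 0.37 and 0.39 FPKM in WT root and 0 in KO root, below the level tested in root, and at 1.42, 2.73 and 0.65 in WT leaf and 27.2, 12.2 and 3.79 in KO leaf (difference -2.82, adjusted p = 0.0146). AT2G46670, a CCT motif gene that shares words with AT2G46790, had a log2 change of -0.55 in root and 2.097 in leaf (difference -2.65, adjusted p = 0.0239). HB-12 (AT3G61890), a homeobox gene, stood at 16.1, 29.8 and 57.3 FPKM in WT root and 20.04, 7.65 and 7.43 in KO root, with log2 changes of -1.44 in root and 0.90 in leaf (difference -2.34, adjusted p = 0.0304).

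AT2G01021 had a log2 change of 4.92 in root, where WT replicate 1 held the KO level, and -3.50 in leaf (difference 8.43, adjusted p = 0.0302). AT4G16563 had 0.47 in root and -4.27 in leaf (difference 4.74, adjusted p = 6.85e-05). LRX3 (AT4G13340), a cell wall extensin-like gene that shares words with AT3G24480, stood at 45.0, 8.49 and 48.9 FPKM in WT root and 42.0, 51.5 and 40.6 in KO root, with 0.70 in root and -2.84 in leaf (difference 3.54, adjusted p = 0.0324). DOT1 (AT2G36120) differed between the effects of OE and KO in root by 3.78 (adjusted p = 3.88e-06, limma). The size of this difference does not use the shared WT libraries, but its p-value comes from the fit of all root libraries.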

How the results depend on the processing

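With all libraries the comparison at 200 µM gave 6 calls, and without single libraries 5 to 922, the latter without WT replicate 1; every other setting gave 5 to 8. AT1G26300 lost its call in 11 settings, which were the groups alone, array weights, voom, the replicate block, each leave-out but that of WT replicate 1, leaving out WT replicates 2 and 3 together, and the length correction without WT replicate 2, an alternative added after the data were seen. The other 5 called genes kept theirs in all 17. The replicate numbers did not pair the samples (correlations of deviations -0.122, -0.191 and -0.183), and the replicate block gave 5 calls at 200 µM, 11 at 0 µM, 0 for the difference between supplies, 209 between organs and 1 between OE and KO. At 0 µM the 10 calls became 17 with the groups alone and 194 with array weights, and 5 to 29 without single libraries. The 0 calls between supplies became 0 to 153 without single libraries. The 240 calls between organs became 4 with the groups alone, 121 with array weights and 76 to 562 without single libraries. Median-of-ratios scaling moved their split from 207 higher and 33 lower to 108 and 55, and the median of all genes to -0.048, and the length correction moved the split to 155 and 71. The 1 call between OE and KO became 3 without a filter, 81 with array weights and 1 to 2 without single libraries. Of the recomputed list medians, 582 stayed within the spread between replicates and 30 moved by more. The causes were not tested.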
